A study of Homo sapiens with 12 samples.

Results

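The protocadherin alpha cluster on human chromosome 5 was examined for 5-methylcytosine (5mC) and 5-hydroxymethylcytosine (5hmC), the oxidised form of 5mC that TET enzymes make. Its members were all CpGs measured between positions 140780000 and 141013000 of chromosome 5 (hg38), that is, 910 of 3689712 CpGs with a 5mC level and 874 of 3534314 CpGs with a 5hmC level. All 874 had both marks. The cells were SV-HUC-1, an immortalised human line of epithelial cells from the urothelium, the lining of the urinary tract. They were exposed for 3 days to 2,6-dichloro-1,4-benzoquinone (DCBQ), a halogenated quinone that forms when water is disinfected with chlorine, or to a blank solution, here called control. Each group had 3 samples, each with a reduced representation bisulfite library and an oxidative one, 12 libraries in all. All samples came from 1 line, and the labels do not say whether those of a group were separate cultures, so a p-value here measures only how far these samples vary, perhaps for technical reasons. The sources used here do not state the concentration of DCBQ.

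Clustered protocadherins are cell-surface adhesion proteins, best known from neurons, where each cell expresses its own combination and like combinations recognise each other. In the alpha cluster every gene has its own promoter and its own large first exon, which encodes the extracellular domains, the membrane span and the start of the tail. That variable exon is spliced to constant exons at the end of the cluster, which encode the rest of the tail in every isoform. In neurons the choice among the alternate genes involves DNA methylation of the promoter and first exon, and looping by CTCF and cohesin, whereas the C-type genes are read more uniformly. The annotation used here (RefSeq, GRCh38.p14) held 15 genes on the forward strand, 13 alternate ones (PCDHA1 to PCDHA13) and 2 C-type ones (PCDHAC1 and PCDHAC2), all ending at position 141012347.

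The promoters are shown first because those matched differed in sequence between the gene types. RefSeq promoter sequences, running from 250 bases before to 50 bases after the start, matched 13 of the 15 genes; PCDHA3 and PCDHA13 were not matched. The longest string held by at least 8 of the 11 matched alternate promoters was CATGATGTCGCT, which spans the CGCT core of the conserved element known from protocadherin promoters. It lay in 8 of 11 alternate promoters, in 0 of 2 C-type promoters, and in 8 of all 35116 promoters (0.023%, both strands), so no other promoter in the table held it, those of the beta and gamma clusters included. Because the string was derived from these promoters, this is a description. Only exact copies were counted over all promoters, so variant forms of the conserved element were not searched for there. The closest match on the forward strand had 4 mismatches in PCDHAC1 and 5 in PCDHAC2. The element (or its closest match, with 2 mismatches, in PCDHA9, PCDHA10 and PCDHA11) is in capitals with the bases around it, forward strand.
PCDHA1 (chr5:140786074-140786125): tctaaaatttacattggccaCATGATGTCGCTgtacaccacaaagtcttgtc
PCDHA2 (chr5:140794769-140794820): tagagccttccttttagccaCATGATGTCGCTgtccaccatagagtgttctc
PCDHA4 (chr5:140806967-140807018): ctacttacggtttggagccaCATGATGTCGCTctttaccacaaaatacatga
PCDHA5 (chr5:140821530-140821581): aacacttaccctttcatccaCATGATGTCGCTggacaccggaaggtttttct
PCDHA6 (chr5:140827885-140827936): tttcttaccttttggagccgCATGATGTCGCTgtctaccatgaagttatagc
PCDHA7 (chr5:140834160-140834211): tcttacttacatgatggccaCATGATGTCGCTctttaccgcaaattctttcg
PCDHA8 (chr5:140841118-140841169): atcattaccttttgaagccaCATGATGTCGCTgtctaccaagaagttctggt
PCDHA9 (chr5:140848275-140848326): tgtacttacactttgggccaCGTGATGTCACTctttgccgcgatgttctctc
PCDHA10 (chr5:140855829-140855880): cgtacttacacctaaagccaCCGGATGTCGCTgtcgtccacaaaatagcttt
PCDHA11 (chr5:140868871-140868922): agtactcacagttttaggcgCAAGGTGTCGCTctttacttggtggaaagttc
PCDHA12 (chr5:140875232-140875283): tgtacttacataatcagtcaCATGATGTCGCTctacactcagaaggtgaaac

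Between 34 and 77 bases separated the element from the gene start in these 11 promoters. The shorter CGCT, which the element contains, was present in 10 of 11 alternate promoters, PCDHA9 being the exception, and in both C-type promoters, but also in 70.008% of all promoters. CCCTC, the core of the CTCF motif, was present in 1 of 11 alternate promoters (PCDHA6) and in both C-type promoters, against 71.201% of all promoters. A match describes letters only and is no evidence of a bound factor.

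The same windows differed in CpG number and in CCGG, the site at which MspI, the usual enzyme of reduced representation libraries, cuts. The 11 alternate promoters held 3 to 9 CpGs (median 7) and 3 of them held a CCGG site. PCDHAC1 held 27 CpGs and PCDHAC2 held 15, both with CCGG sites, where the median promoter of the genome held 14 and 63.134% had a CCGG site. The promoters of PCDHA1 and PCDHAC1 are shown with every CpG in capitals, and that of PCDHAC2 with only its 10 measured CpGs in capitals.
PCDHA1 (chr5:140785890-140786189): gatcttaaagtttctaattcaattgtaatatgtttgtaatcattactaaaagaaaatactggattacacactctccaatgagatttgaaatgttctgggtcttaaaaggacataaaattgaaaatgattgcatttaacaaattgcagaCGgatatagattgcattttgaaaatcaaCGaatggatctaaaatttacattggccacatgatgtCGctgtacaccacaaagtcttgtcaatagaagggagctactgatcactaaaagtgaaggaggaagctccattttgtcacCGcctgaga
PCDHAC1 (chr5:140926049-140926348): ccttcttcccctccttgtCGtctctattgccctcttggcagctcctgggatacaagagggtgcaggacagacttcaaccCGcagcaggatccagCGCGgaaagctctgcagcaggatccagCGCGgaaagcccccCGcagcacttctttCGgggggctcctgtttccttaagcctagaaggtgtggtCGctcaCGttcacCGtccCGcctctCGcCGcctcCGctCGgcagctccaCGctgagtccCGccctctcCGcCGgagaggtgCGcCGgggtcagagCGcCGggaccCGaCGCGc
PCDHAC2 (chr5:140966226-140966525): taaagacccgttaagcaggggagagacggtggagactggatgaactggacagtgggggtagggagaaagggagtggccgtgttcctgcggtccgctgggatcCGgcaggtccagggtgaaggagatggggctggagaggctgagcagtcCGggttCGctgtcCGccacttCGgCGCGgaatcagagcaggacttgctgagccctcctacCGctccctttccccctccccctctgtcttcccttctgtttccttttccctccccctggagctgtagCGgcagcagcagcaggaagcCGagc

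No CpG of the alternate promoters or of the PCDHAC1 promoter was measured, so the data on these genes start downstream of their promoters. The 10 measured CpGs of the PCDHAC2 promoter had mean control 5mC between 0.000% and 16.6%, and the highest, at position 140966375, had 31.6%, 5.0% and 13.3% in the controls and 8.3%, 15.8% and 5.9% with DCBQ.

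Since the reference held no exon positions, the first 2500 bases after each gene start stood in for the first exon and are called first-exon windows. Of the 910 CpGs with a 5mC level, 645 lay in alternate windows, 151 in C-type windows, 8 in the 500 bases before PCDHAC2 and 28 in the constant part. The remaining 78 lay between the windows. The constant part covered PCDHACT, the annotated constant region (chr5:140978949-141012344), introns included. None was measured ahead of PCDHA1, between the PCDHAC2 window and PCDHACT, or after the shared end. The map of the cluster shows how the measured CpGs bunch inside the windows.

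**Figure D1:**
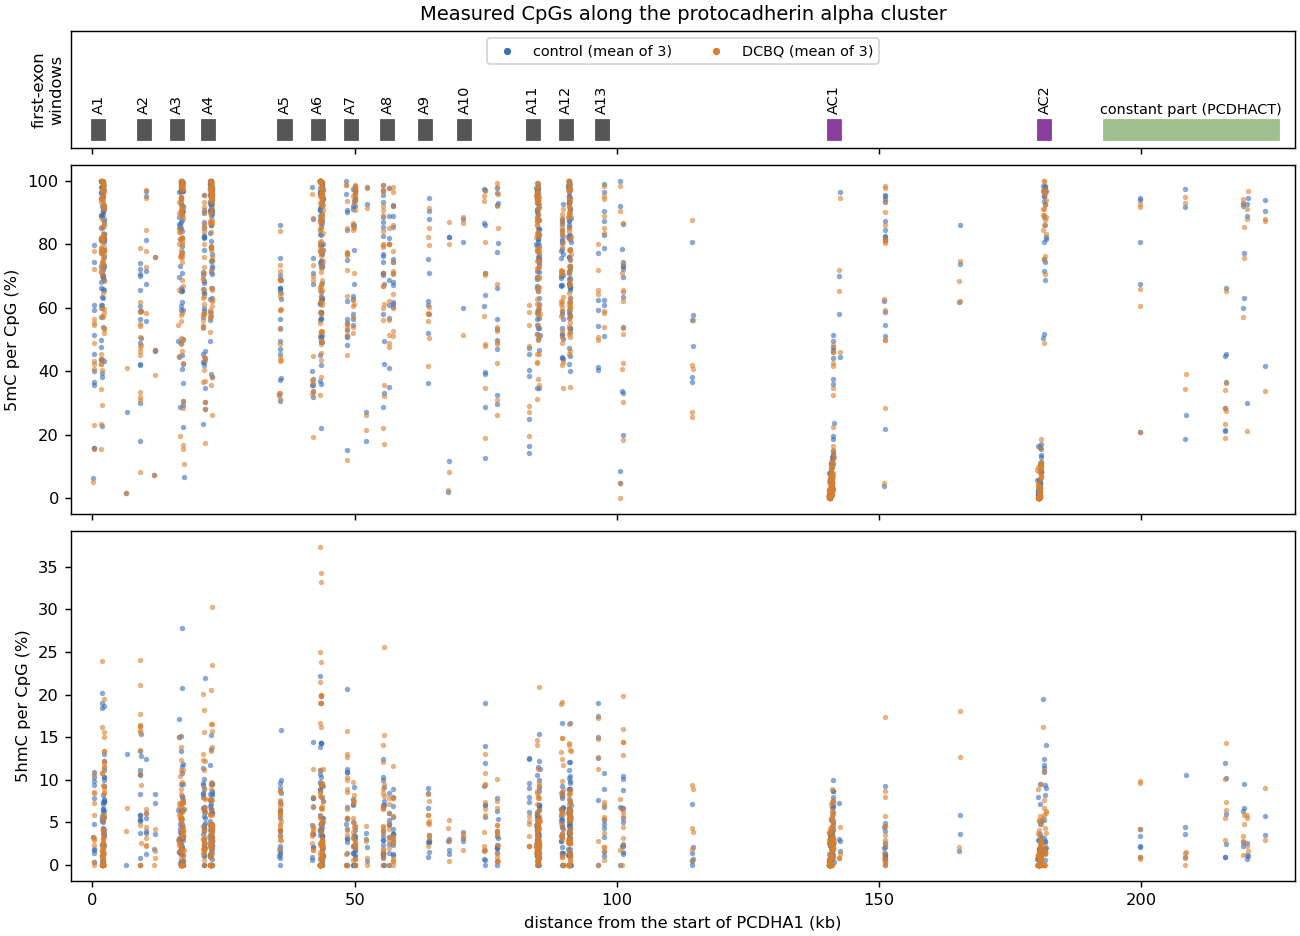
5mC and 5hmC (%) of each measured CpG along the cluster, by distance from the start of PCDHA1 in kb; each point is the mean of the 3 control samples or the 3 DCBQ samples. Alternate windows (grey, A1 to A13) held mostly CpGs with intermediate or high 5mC. The CpGs at the starts of AC1 and AC2 (purple) were near 0 for 5mC, and 5hmC was low throughout.

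5mC was high over the alternate first exons and low over the C-type ones. In the controls the alternate windows together carried 74.09%, 74.36% and 73.75% 5mC, and the C-type windows 21.03%, 21.28% and 19.87%. The 2 types were measured at unlike distances from the gene start, as described below. The difference between the types was 53.3 ± 0.468 percentage points (SD, n = 3). Every sample showed it: the lowest alternate window of any sample was at 52.4% (PCDHA2 in DCBQ sample 3), above PCDHAC2 (30.2 to 32.9% over the 6 samples) and PCDHAC1 (10.5 to 12.1%). In control sample 1, 47.6% of CpGs in alternate windows were at or above 80% 5mC and 1.085% were under 20%, while 76.2% of those in C-type windows were under 20%. Against the 11942 protein-coding genes measured in the same kind of window, whose median control level was 6.05%, the tested alternate windows ranked between the 84.0th and the 91.4th percentile, PCDHAC2 at the 75.1st and PCDHAC1 at the 58.9th.

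Among the alternate genes, PCDHA7 had the highest control level, 78.2 ± 1.21% (SD, n = 3, 39 CpGs). PCDHA4 (77.0 ± 1.43%), PCDHA3 (76.3 ± 1.89%), PCDHA10 (76.2 ± 3.35%, 3 CpGs) and PCDHA6 (76.1 ± 0.814%) followed, and neighbours in this order overlapped in their control samples. PCDHA12 (74.6 ± 0.676%), PCDHA1 (74.3 ± 2.13%), PCDHA11 (73.6 ± 0.396%), PCDHA8 (72.1 ± 1.54%), PCDHA13 (69.6 ± 1.32%) and PCDHA9 (68.9 ± 1.06%) came next. Neighbours overlapped here too, while the controls of PCDHA6 and PCDHA12 did not; those of PCDHA6 and PCDHA1 did. PCDHA2, at 61.0%, 61.6% and 61.3%, and PCDHA5, at 58.4%, 58.4% and 54.6%, lay below all of these in every control and did not overlap each other. PCDHAC2 (31.5 ± 1.21%) and PCDHAC1 (11.6 ± 0.458%) ended the order, each clear of the next.

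**Figure D2:**
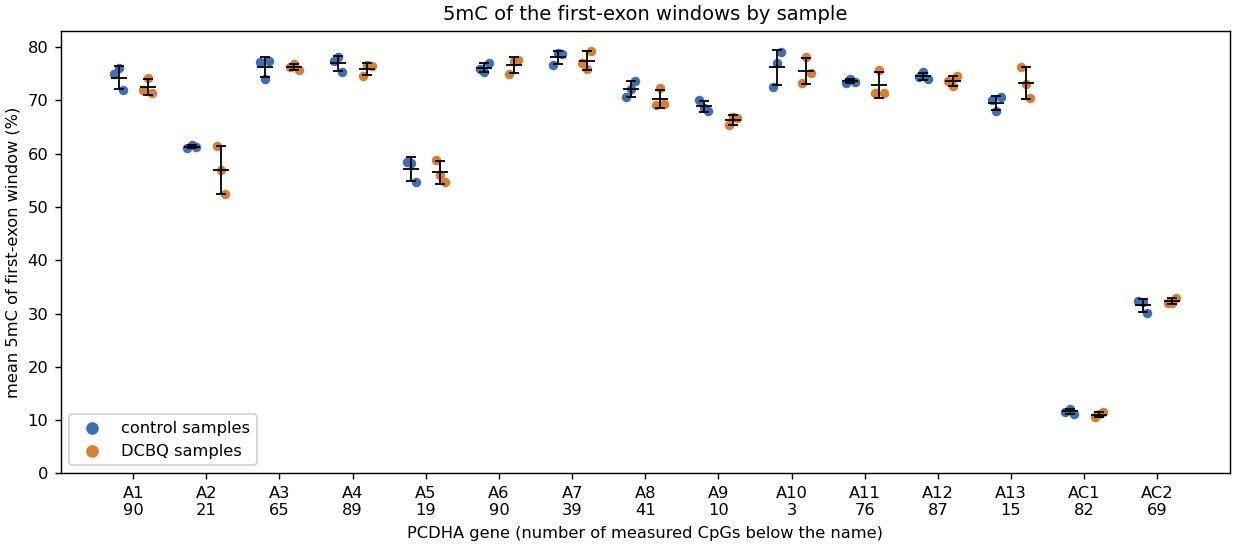
Mean 5mC (%) of the first-exon window of each PCDHA gene, in order along the chromosome; points are samples, and bars the mean ± SD of 3 samples. The alternate windows lie between 52.4% and 79.4%, and AC2 and AC1 lie near 32% and 11% in both groups.

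The windows were not measured at the same places. All 19 measured CpGs of PCDHA5 were in the first 500 bases, and those of PCDHA9 all between 1500 and 1999 bases after the start. In 11 genes with at least 3 CpGs on each side, the first 1000 bases carried less 5mC than the rest of the window in all 6 samples for 10 genes. The exception was PCDHA8, with 72.4% near the start and 71.9% beyond in the controls. PCDHA11 went from 32.5% (7 CpGs) to 77.8% (69 CpGs), PCDHA1 from 43.5% to 79.0%, and PCDHA12 only from 68.9% to 77.4%. Averaged over the alternate genes, control 5mC was 60.9 ± 0.899% in the first 500 bases (156 CpGs) and 59.9 ± 2.04% in the next 500. It was 70.1 ± 0.900% at 1000 to 1499 bases (22 CpGs) and 80.5 ± 0.573% at 1500 to 1999 bases (312 CpGs). In the last 500 bases it was 76.3 ± 0.499% (143 CpGs).

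Compared at the same distance, the alternate genes still differed. In the first 500 bases the control level was 32.5 ± 3.94% for PCDHA11 and 43.5 ± 0.399% for PCDHA1, the lowest of the 10 alternate genes measured there. PCDHA2 (54.9 ± 2.01%), PCDHA13 (55.8 ± 3.83%), PCDHA6 (55.9 ± 3.26%), PCDHA5 (57.1 ± 2.17%), PCDHA4 (65.0 ± 0.599%), PCDHA7 (67.1 ± 1.89%), PCDHA12 (69.8 ± 1.66%) and PCDHA8 (72.7 ± 2.65%) lay higher. All 10 were far above the C-type genes in that stretch, 4.11 ± 0.437% for PCDHAC2 (44 CpGs) and 1.43 ± 0.125% for PCDHAC1 (24 CpGs). At 1000 to 1499 bases this was reversed for PCDHAC2, with 86.1 ± 2.58% (20 CpGs) against 70.1 ± 0.900% for the alternate genes together (22 CpGs). PCDHAC1 stood at 33.0 ± 2.13% there (12 CpGs). At 1500 to 1999 bases the order of the alternate genes was another one. PCDHA7 (88.6 ± 0.911%), PCDHA4 (86.1 ± 1.91%) and PCDHA3 (85.9 ± 0.962%) were on top, and PCDHA8 (70.3 ± 0.353%) and PCDHA9 (68.9 ± 1.06%) were lowest.

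5mC rose inside the window in both C-type genes, at different distances. Each window was split at its first CpG whose control mean reached a set level, so a lower mean before the split is built in. In PCDHAC2, 46 CpGs up to 511 bases after the start averaged 4.53% in the controls, and none exceeded 17.0%. The next measured CpG, 939 bases after the start, opened a run of 23 CpGs that averaged 85.6%. In PCDHAC1, 69 CpGs up to 1017 bases after the start averaged 4.76%. The 13 beyond averaged 48.0% and reached down to 18.8%, so the rise was less complete. The low stretch of PCDHAC2 continued upstream, where 8 CpGs of the 500 bases before the start averaged 3.90 ± 2.47%. Single controls there read 6.70%, 2.03% and 2.96%.

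**Figure D3:**
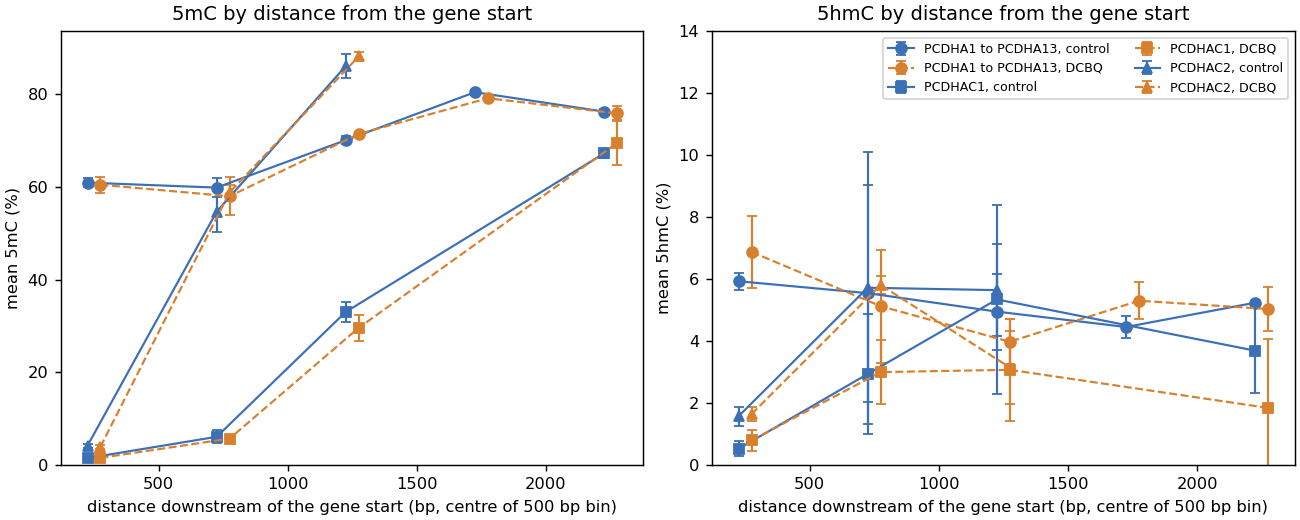
Mean 5mC and 5hmC (%) by distance from the gene start in bins of 500 bases, for the alternate genes together and for PCDHAC1 and PCDHAC2; points are means of 3 samples and bars their SD. Control 5mC of the alternate genes goes from 60.9% and 59.9% in the first bins to 80.5% at 1500 to 1999 bases and 76.3% in the last bin, both C-type curves start near 0 and rise, and the control and DCBQ curves run side by side.

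The constant part was less methylated than the alternate exons and more than the C-type ones. Its 28 CpGs averaged 64.41%, 63.51% and 62.18% in the controls and 61.06%, 63.54% and 61.72% with DCBQ. They were uneven: in control means, the first 2 CpGs measured in the region, at positions 140985832 and 140985884, stood at 21.0% and 94.6%. A stretch of 7 CpGs between positions 141002101 and 141002307 stayed between 21.2% and 66.3%. The 13 CpGs of PCDHA14, a pseudogene between PCDHA10 and PCDHA11 (chr5:140861188-140863550), carried 67.1 ± 0.386% in the controls and 64.8 ± 2.74% with DCBQ.

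5mC differed little between DCBQ and control over the cluster. Over the whole window it was 63.25%, 63.42% and 62.59% in the controls and 61.78%, 62.91% and 62.30% with DCBQ. The group means differed by -0.757 ± 0.413 points (SE). The groups overlapped, and the exact permutation test over samples (two-sided) gave p = 0.2, where 3 against 3 samples cannot go below 0.1. The mean over all CpGs of the genome was also lower with DCBQ, at 54.06 to 54.24% against 54.45 to 54.72%; relative to it the window differed by -0.34 points. All variable exons together differed by -0.656 points (exact permutation p = 0.2). The alternate exons alone differed by -0.816 points (exact permutation p = 0.2), the constant part by -1.26 (p = 0.3) and the CpGs between windows by -1.68 (p = 0.2). With windows of 2000 bases the last of these was -0.786, and the constant part moved to -0.741 without control sample 1, -0.738 without DCBQ sample 1 and -1.98 without DCBQ sample 2. The C-type exons read 20.7 ± 0.752% and 20.7 ± 0.494% (n = 3 each, exact permutation p = 1.0). Whether the variable exons and the constant part differed unequally was tested on their difference within each sample, which differed between the groups by 0.605 points (exact permutation p = 0.5). Leaving out 1 sample moved this value between 0.120 (without control sample 1) and 1.03 (without DCBQ sample 2). Over the 18 tests of this family no Benjamini-Hochberg adjusted p was under 0.36.

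Of the 15 first-exon windows, 14 had the 5 CpGs that testing required; PCDHA10 had 3. limma with Benjamini-Hochberg adjustment over all 11942 genes called none of the 14 (adjusted p 0.712 to 0.998), and none of all genes (0.0%). At an unadjusted p under 0.05 it gave 1 of the 14, against 6.71% of all genes. The level was lower with DCBQ in 10 of the 14, and in 59.0% of all genes.

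PCDHA9 alone had groups that did not overlap, which 12.0% of all genes had. Its 10 CpGs read 70.1%, 68.5% and 68.1% in the controls and 65.4%, 67.0% and 66.7% with DCBQ, a difference of -2.56 ± 0.923 points (SE; limma adjusted p = 0.712). PCDHA2 was nearly constant in the controls but spread over 61.4%, 56.9% and 52.4% with DCBQ. The difference was -4.38 ± 2.16 points, and DCBQ sample 1 lay inside the control range. PCDHA13 had the largest positive difference, 3.65 ± 1.63 points, from 70.1%, 68.1% and 70.6% to 76.3%, 73.1% and 70.4%, with DCBQ sample 3 inside the control range. The other 11 tested windows differed by between -1.84 (PCDHA8) and 0.742 points (PCDHAC2).

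5hmC was low across the cluster but higher over the alternate exons than over most genes' first exons. The whole window carried 4.55%, 4.27% and 4.70% in the controls. The alternate windows together carried 5.20%, 4.83% and 5.10%, the C-type windows 2.78%, 2.38% and 3.28%, and the constant part 2.92%, 5.36% and 4.04% (26 CpGs). By gene, PCDHA13 led with 8.52%, 8.01% and 7.12% in the controls, followed by PCDHA2 with 8.08%, 7.48% and 5.45%, whose range overlapped it. The other alternate windows lay between 3.26% (PCDHA10) and 5.70% (PCDHA1) with overlapping control ranges between neighbours, and PCDHAC2 (3.05 ± 0.575%) and PCDHAC1 (2.61 ± 0.445%) were lowest. Among the 11861 genes tested, whose median was 1.24%, the tested alternate windows ranked between the 87.3rd and the 98.8th percentile. The level was not particular to this cluster, since the beta and gamma clusters had similar 5hmC, given below. The ranking was not made at matched 5mC: over all genes tested for 5mC, the median control level was only 6.05%.

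**Figure D4:**
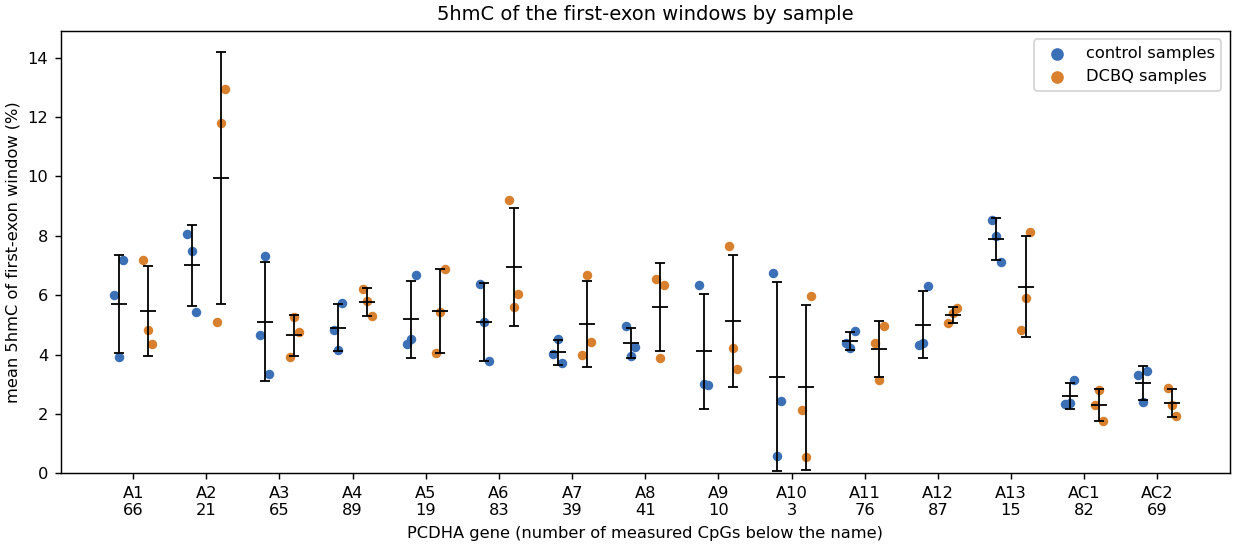
Mean 5hmC (%) of the first-exon window of each PCDHA gene, in order along the chromosome; points are samples, and bars the mean ± SD of 3 samples. AC1 and AC2 are low in both groups, and A2 spreads most with DCBQ, from 5.10% to 13.0%.

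5hmC was measured far less repeatably than 5mC. Across the CpGs of the window, pairs of samples correlated at 0.920 to 0.942 for 5mC and at 0.056 to 0.312 for 5hmC (Pearson's r across CpGs, which are not independent replicates). Between 41.6% and 46.7% of the 874 CpGs stood at exactly 0 for 5hmC in a sample, where any value below 0 was set to 0 here. Such a floor can raise the mean of a noisy level. How far it moved 5hmC in each 5mC class or part of the cluster was not tested. Grouped by their control 5mC, the 392 CpGs between 20 and 80% carried the most 5hmC, 6.62 ± 0.041% in the controls. The 141 CpGs under 20% carried 2.34 ± 0.431%, and the 341 CpGs at or above 80% carried 2.97 ± 0.423%. The marks are not separate readings: of the 68 to 97 CpGs at 100% 5mC in a sample, at most 2 had any 5hmC, and the sum of both averaged 66.5 to 67.3%. Neither the level nor the difference in 1 mark at a CpG is therefore independent of that in the other. The 5mC classes were also cut on the same control samples, so the ranking of 5hmC by class is a description only.

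With DCBQ, 5hmC was slightly higher over the alternate exons in every sample, within what 3 against 3 samples can test. They carried 5.84%, 5.30% and 5.61%, all above the highest control, a difference of 0.538 ± 0.192 points (SE). The exact permutation p was 0.1, the smallest possible, and 0.36 after adjustment over 18 tests. All variable exons together differed by 0.3375 ± 0.1835 points, the whole window by 0.427 ± 0.18 points and the CpGs between windows by 1.35 ± 0.469 points. These were also without overlap (exact permutation p = 0.1 each, adjusted 0.36). The alternate exons hold 614 of the 765 CpGs of the variable exons and of the 874 of the window, so these are not separate observations. With windows of 2000 bases, which hand some exon CpGs to the stretches between, the difference between windows was only 0.292 points.

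The C-type exons went the other way, from 2.78%, 2.38% and 3.28% to 2.57%, 2.59% and 1.85%, with overlapping groups (-0.478 points, exact permutation p = 0.3). Alternate minus C-type 5hmC was 2.42, 2.45 and 1.83 points in the controls and 3.27, 2.71 and 3.76 with DCBQ. These values did not overlap, and differed by 1.02 ± 0.364 points (exact permutation p = 0.1, adjusted 0.36). The split into alternate and C-type exons was chosen after the levels were seen. The constant part, at 5.61%, 2.08% and 6.25% with DCBQ, overlapped the controls (0.534 ± 1.48 points, exact permutation p = 0.7). The genome mean was 3.31 to 3.44% in the controls and 3.34 to 3.62% with DCBQ, and relative to it the alternate exons differed by 0.44 points.

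**Figure D5:**
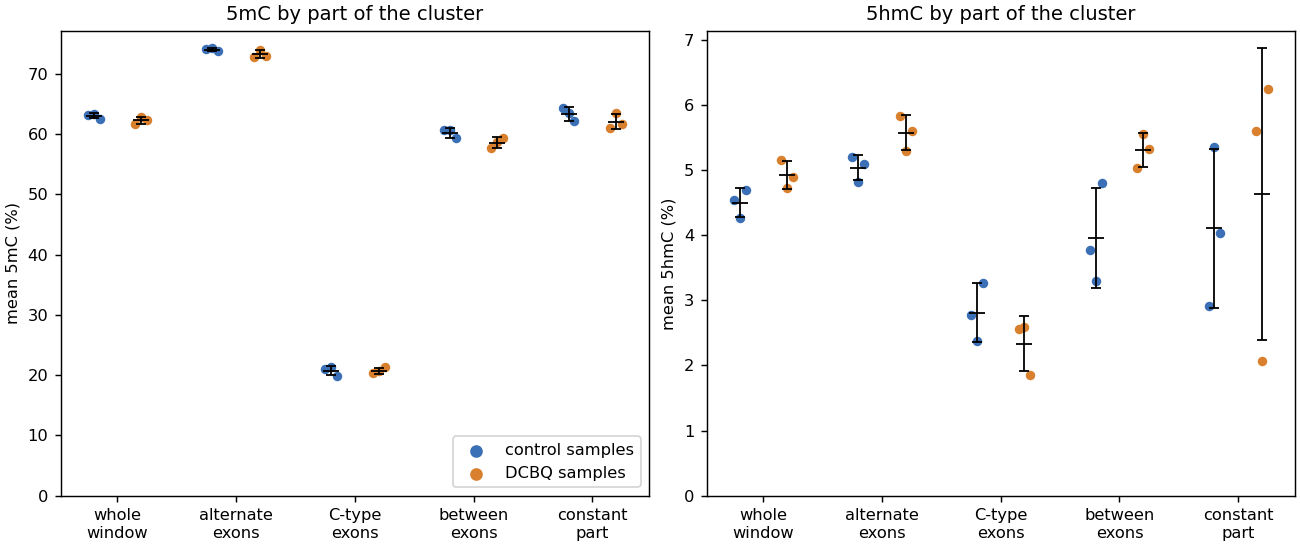
Mean 5mC and 5hmC (%) of the window and its parts; points are samples, and bars the mean ± SD of 3 samples. For 5hmC the control and DCBQ samples are apart over the whole window, the alternate exons and the CpGs between exons, and overlap over the C-type exons and the constant part; for 5mC they overlap in every part.

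No single window passed the test for 5hmC. limma called none of 14 tested windows (adjusted p 0.972 to 0.998) and none of all 11861 genes (0.0%). None of the 14 had an unadjusted p under 0.05 (4.6% of all genes) or groups that did not overlap (9.86%), and 6 of the 14 were lower with DCBQ (46.7% of all genes). PCDHA2 had the largest difference, 2.95 ± 2.58 points, resting on DCBQ samples 2 and 3 at 11.8% and 13.0% while sample 1, at 5.10%, was below all controls. Those were also the samples with its lowest 5mC. PCDHA6 differed by 1.86 ± 1.53 points, mostly through DCBQ sample 1 at 9.22%. PCDHA13, the gene highest in the controls, differed by -1.59 ± 1.65 points.

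At finer scale, 40 tiles of 1 kb in the cluster had at least 5 CpGs. None was called by limma for either mark, nor was any tile of the genome (0.0% of 210465 for 5mC and 0.0% of 201935 for 5hmC). For 5mC, 27 of the 40 were lower with DCBQ (59.8% of all tiles), 7 had groups that did not overlap (11.5%) and 3 had an unadjusted p under 0.05 (6.2%). For 5hmC, 17 were lower (47.2%), 5 did not overlap (9.94%) and 1 had an unadjusted p under 0.05 (4.83%).

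The 5mC tile with the smallest p covered the middle of the PCDHA11 window (chr5:140870001-140871000, 27 CpGs). It read 82.2%, 81.1% and 79.4% in the controls and 78.2%, 76.9% and 75.4% with DCBQ, without overlap (-4.07 ± 1.36 points, limma adjusted p = 0.765). The tile just before it, which held the 7 CpGs near the start of PCDHA11, differed in the other direction. It read 28.0%, 33.9% and 35.4% against 38.6%, 52.8% and 36.3% for 5mC (10.1 ± 4.54 points, adjusted p = 0.816) and 8.93%, 14.7% and 4.32% against 4.87%, 0.000% and 6.19% for 5hmC. The 5mC groups did not overlap, and the 5hmC groups did.

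The other tiles with the smallest p lay in PCDHAC1 and PCDHA2. The PCDHAC1 tile across the rise in its window (chr5:140927001-140928000, 37 CpGs) read 16.0%, 16.1% and 15.1% in the controls and 13.3%, 14.8% and 13.7% with DCBQ. The PCDHA2 tile (chr5:140795001-140796000, 15 CpGs) read 53.6%, 54.3% and 55.9% against 51.8%, 48.2% and 42.0%. Both were without overlap, with limma adjusted p of 0.774 and 0.795. In the constant part, 5 CpGs at chr5:141005001-141006000 had 77.1 ± 3.69% and 81.1 ± 1.2% 5mC, and 5hmC of 5.46 ± 0.482% and 3.58 ± 1.34%. The 5hmC tile with the smallest p lay between PCDHA13 and PCDHAC1 (chr5:140900001-140901000, 6 CpGs), with 1.75%, 1.41% and 2.78% in the controls and 6.96%, 4.10% and 3.46% with DCBQ (limma adjusted p = 0.973).

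The remaining tiles with the smallest p in each direction had adjusted p of 0.844 for 5mC and 0.973 for 5hmC. The tile at the start of PCDHA13 (chr5:140882001-140883000, 6 CpGs) read 55.6%, 52.1% and 59.8% 5mC in the controls and 71.7%, 64.3% and 55.1% with DCBQ, with overlap (7.87 ± 4.41 points). For 5hmC, the tile holding the methylated run of the PCDHAC2 window (chr5:140967001-140968000, 23 CpGs) read 6.25%, 4.59% and 6.82% against 4.36%, 4.13% and 2.54%, without overlap. A tile between PCDHAC1 and PCDHAC2 (chr5:140937001-140938000, 14 CpGs) read 1.54%, 3.41% and 2.52% against 3.68%, 5.31% and 4.02%, also without overlap. A tile after the PCDHA13 window (chr5:140887001-140888000, 12 CpGs) read 7.81%, 2.67% and 5.24% against 9.49%, 10.02% and 6.92%, and its groups overlapped.

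At the low end the tiles repeated the contrast of gene types, but at the high end they did so only in part. The highest control 5mC was 92.0 ± 0.7%, in PCDHA7 (15 CpGs, 1732 bases after the start), then 89.7% in PCDHA6 and 86.1% in PCDHA12. A C-type tile came close behind, with 85.6% in PCDHAC2 (chr5:140967001-140968000, 23 CpGs). The lowest was 2.48 ± 0.561%, at the start of PCDHAC1 (41 CpGs), then 4.44% at the start of PCDHAC2 (54 CpGs). The same 2 tiles also had the lowest 5hmC, 1.18 ± 0.555% and 1.63 ± 0.187%. The highest 5hmC was at the start of PCDHA13, 12.0 ± 3.24% (6 CpGs), then at the start of PCDHA11, 9.31 ± 5.19%, and between PCDHA10 and PCDHA11, 8.67 ± 1.7% (8 CpGs).

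Among single CpGs that varied between samples, limma called none of the 895 tested in the cluster for 5mC and none of the 841 tested for 5hmC, where a call also needed a difference of 10 points. In the genome it called 0 of 3419211 (0.0%) and 3 of 3153081 (9.51e-05%). For 5mC, 497 of the 895 were lower with DCBQ (53.1% of all), 94 had groups without overlap (8.02%) and 47 an unadjusted p under 0.05 (4.69%). For 5hmC, 397 of the 841 were lower (49.0%), 61 were without overlap (6.03%) and 20 had an unadjusted p under 0.05 (1.98%).

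The CpGs with the smallest p for 5mC lay in PCDHA1, PCDHA3, PCDHA6 and PCDHAC2. In PCDHA1, the CpG at position 140787735 read 100% in every control and 83.3%, 80.0% and 83.3% with DCBQ (limma adjusted p = 0.850), and its neighbour at 140787751 differed by -23.2 points. In PCDHA6, the CpG at 140829705 read 57.1%, 57.1% and 55.6% against 87.5%, 80.0% and 100%, and that at 140829597 differed by 25.9 points. In PCDHA3, the CpG at 140803498 differed by -19.4 points. CpGs this close can share reads and are not separate measurements.

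The first CpG of the methylated stretch of PCDHAC2, at position 140967415, was named for both marks. Its 5mC was 60.0%, 50.0% and 41.7% in the controls and 100%, 84.6% and 83.3% with DCBQ, a difference of 38.7 ± 7.2 points without overlap (limma adjusted p = 0.866). Its 5hmC was 0.000%, 25.0% and 33.3% in the controls and 0.000% in each DCBQ sample, which overlapped (adjusted p = 0.781). For 5hmC, CpGs of PCDHA6 (140829583), PCDHA4 (140807461) and PCDHA2 (140795263) stood at 0 in every control and averaged 21.4%, 18.2% and 16.4% with DCBQ. CpGs at 140882533 in PCDHA13 and 140967553 in PCDHAC2 averaged 15.02% and 11.4% in the controls and stood at 0 with DCBQ. All 6 had an adjusted p of 0.781.

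The beta and gamma clusters, which follow on the same chromosome arm, gave similar first-exon levels: the median control 5mC was 70.4% over 14 PCDHB genes and 68.2% over 18 PCDHG genes, against 72.9% over the 14 tested PCDHA genes. The median control 5hmC was also similar, at 4.48% for the PCDHB genes, 4.76% for the PCDHG genes and 4.96% for the PCDHA genes. In the beta and gamma clusters 5mC was lower with DCBQ in 11 of 14 and in 9 of 18. Genes that act on the cluster or with its proteins mostly had little 5mC in their first-exon windows. Of genes for looping and promoter choice 10 were tested, with a median control 5mC of 1.12%. CTCF, the looping factor, had 5hmC of 0.381 ± 0.007% in the controls and 0.704 ± 0.191% with DCBQ (limma adjusted p = 0.972). SMC3, a cohesin subunit, had 5mC of 1.08 ± 0.112% and 2.10 ± 0.281% (limma adjusted p = 0.517). Its 5hmC went the other way, from 1.13% to 0.702% (limma adjusted p = 0.972). STAG2, also of cohesin, had lower 5mC with DCBQ, at 1.31% and 0.302% (limma adjusted p = 0.670). Of the 10, 4 were lower with DCBQ for each mark.

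Of genes that regulate 5mC or chromatin, 8 were tested (median control 5mC 1.35%), and 6 were lower with DCBQ for 5mC and 1 for 5hmC. DNMT3B, a de novo methyltransferase, read 3.74 ± 0.137% and 3.38 ± 0.308%, and TET1, which oxidises 5mC, 13.3 ± 0.427% and 13.5 ± 1.21%. Of partners of the shared tail and of its processing, 10 were tested (median control 5mC 1.40%), and 6 were lower for 5mC and 5 for 5hmC. Among them CYFIP2, of the WAVE complex that the tail can recruit, read 7.25 ± 0.523% and 7.79 ± 0.188%. limma called none of these genes for either mark, as 0.0% of all genes were called.

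The labelled cell type can be checked here only through DNA methylation. Of 14 urothelial marker genes 6 were measured, KRT5, KRT8 and PPARG with 2.14%, 9.10% and 1.12% control 5mC in their first-exon windows and GATA3, UPK1A and UPK1B with 61.7%, 78.9% and 83.2%. Of leukocyte and endothelial markers only CD14 was measured (83.0%), and of neural markers SYP (3.38%) and RBFOX3 (84.3%). Across the genome, samples correlated at 0.968 to 0.972 for 5mC and 0.197 to 0.231 for 5hmC, and no pair of samples was identical. The deposited levels come without read numbers, so the depth behind each level is unknown and no counting interval can be given. The PCDHA genes resemble each other in sequence, and how reads that match several of them were treated is stated in no source used here.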

How the data were processed

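Per the labels' protocols, DNA was prepared as RRBS and oxidative RRBS libraries; the submitters' processing notes name cutadapt, Trim Galore, BSMAP 2.90 and build hg38. The authors deposited 1 table per mark with the 5mC or 5hmC level of each CpG as a fraction per sample, here multiplied by 100. How the libraries were combined and reads filtered was not given in the sources used here, beyond a coverage of 5 in the tables' names. Since no reads per CpG are given, levels were analysed, not counts, and every CpG weighed the same.

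Gene positions came from RefSeq (GRCh38.p14). Part means were compared by two-sided exact permutation over samples. First-exon windows (2500 bases after the start), upstream windows (500 bases) and tiles of 1 kb, each with 5 or more CpGs, were fitted, like single varying CpGs, over the whole genome with limma 3.58.1 (R 4.3.3; mean-variance trend, Benjamini-Hochberg, 0.05), which was tested on simulated data. The exon windows needed genes with a known strand; for PCDHA3 and PCDHA13 it was taken from the end they share with the others. Named were all 15 PCDHA genes, and per mark the 3 tiles and 3 CpGs with the smallest p in each direction, the 3 tiles with the highest and lowest control level, and up to 4 genes per related list. Members, parts and lists were chosen with earlier results of these data known. Alternatives were another scale, window, CpG minimum, variance model or weighting, CpGs in both tables, each sample left out and a replicate block.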

Additional observations from a re-analysis of the deposited data

How the results depend on the processing

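No unit of the cluster was called under any alternative run. Over the genome, the 3 calls among single CpGs for 5hmC fell to 0 on the arcsine square root scale, without the mean-variance trend, with the replicate block and without each replicate in turn (0 to 0), and the calls among first-exon windows for 5mC ranged from 0 to 1 when replicates were left out. The cause was not tested.

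None of the differences that changed sign had passed a test. With windows of 2000 bases the C-type exons differed by -0.0351 points for 5mC. Leaving out each replicate in turn, differences in part means ranged across 0 as follows: 5mC upstream from -1.06 to 1.44, 5mC of the C-type exons from -0.403 to 0.302, 5hmC upstream from -0.686 to 0.794, 5hmC of the constant part from -0.268 to 1.82, and 5hmC of the exons minus the constant part from -1.39 to 0.643. Among first-exon windows, 5mC ranged from -1.07 to 0.641 in PCDHA3, -1.89 to 0.259 in PCDHA5, -0.027 to 1.33 in PCDHA6 and -1.65 to 0.101 in PCDHA7. For 5hmC it was -1.12 to 0.499 in PCDHA1, -1.35 to 0.627 in PCDHA3, -0.439 to 1.01 in PCDHA5, -0.245 to 2.14 in PCDHA9, -0.70 to 0.222 in PCDHA11 and -0.0084 to 0.973 in PCDHA12. The 5hmC difference of the alternate exons ranged from 0.409 to 0.679, that of the C-type exons from -0.695 to -0.235. With only CpGs in both tables, 5mC of the alternate exons differed by -0.53 points.

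The replicate numbers are shared between groups, but same-numbered samples did not deviate together (r from -0.0345 to 0.0092 across CpGs), so they were not treated as paired. In this balanced design a replicate block leaves every difference of means as it was (0.538 points for 5hmC of the alternate exons), so it bears only on the calls, and none was made in the cluster. The variance trend and the CpG minimum likewise leave differences unchanged. A minimum of 10 CpGs could not be applied upstream of PCDHAC2, which has 8. The depth behind every level is unknown.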
